A study of Mus musculus with 2 samples.

Results

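The genes described here are 38 core genes of the cell division cycle, 18 that act in DNA replication (Mcm2 to Mcm7, Pcna, Rrm1, Rrm2, Tyms, Gins2, Cdc6, Cdt1, Ccne1, Ccne2, Slbp, Dut and Uhrf1) and 20 that act in mitosis (Mki67, Top2a, Cdk1, Ccnb1, Ccnb2, Ccna2, Birc5, Ube2c, Cenpf, Cenpa, Cenpe, Aurka, Aurkb, Bub1, Plk1, Tpx2, Nusap1, Hmmr, Cdc20 and Kif11). They were taken by symbol from the gene tables of 2 mouse lung single-cell libraries, and all 38 were found among the 27998 gene IDs listed. Each was followed across carcinoma-like, fibroblast, endothelial and lung epithelial cells of both libraries.

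A dividing cell copies its DNA in S phase and separates the copies in mitosis. Origins of replication are licensed when Cdc6 and Cdt1 load the ring of Mcm proteins onto DNA, cyclin E pushes the cell into S phase, and Pcna then clamps the polymerases to the template while Rrm1, Rrm2, Tyms and Dut supply or guard the nucleotide pool. The mitosis genes follow later: Cdk1 with its cyclins drives entry into mitosis, the aurora and polo kinases build the spindle, centromere proteins attach chromosomes to it, and Cdc20 and Ube2c direct the destruction of cyclin that ends mitosis. Transcripts of both sets are switched on in waves, the first through E2F factors and the second through the CHR element bound by the DREAM and MuvB complexes, and most cells of a healthy adult lung are outside the cycle.

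The libraries were made from lungs collected on day 7 after an intravenous injection of Labelling-4T1, a derivative of the mouse mammary carcinoma line 4T1 that is known to secrete an mCherry protein able to enter neighbouring cells. Dissociated cells that were CD45- (lacking the leukocyte surface protein) were sorted into Cherry_Positive and Cherry_Negative cells, with 1 library each. A Cherry_Positive sort can therefore hold both the tumour cells and host cells that had taken up the label. The series title concerns radiation, but the labels do not say whether these lungs were irradiated, and the sources used here do not state the strain, sex, age and number of mice.

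The Cherry_Positive library held 1826 barcodes and 10094853 UMIs (unique molecular identifiers, each standing for 1 captured transcript molecule), and the Cherry_Negative library 2861 barcodes and 11632459 UMIs. After filtering, 1766 and 2804 cells remained, and 13 barcodes occurred among the kept cells of both libraries. Clusters were named by marker genes without using the 38 genes. They gave 1243 and 699 fibroblasts, 224 and 1444 endothelial cells, 40 and 526 lung epithelial cells, and a carcinoma-like cluster of 123 Cherry_Positive and 4 Cherry_Negative cells. In the Cherry_Positive carcinoma-like cells, Krt8 was present in 91.1% and Krt18 in 87.0% of cells, all 11 carcinoma markers were above their level in the other cells of that library, and 4 of the 11 met the detection rule of the naming. Of 7 lung epithelial markers 1 was at 0 there, the factor Nkx2-1, and of 4 leukocyte markers 3 were, with Ptprc among them. UMIs of the AT2 gene Sftpc were seen in 62.6% of these cells, and in 50.3% of all other kept cells of the library. Those of the club cell gene Scgb1a1 were seen in 82.9% and 76.6%. There are no replicates, so no test was made: every comparison is between these 2 libraries or between classes within 1 of them, and each interval below is a 95% interval for counting error only. Intervals treat UMIs as independent, which UMIs of the same cell are not. Levels are CPM, the UMIs of a gene per 1000000 UMIs of the class. They count 3' tags, 1 per molecule, and so are not divided by gene length. The level of Sftpc was 157 CPM in the carcinoma-like cells and 4316 in the other kept cells of the library, and that of Scgb1a1 was 359 and 7843.

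Part of the promoters held the letters of the elements through which the waves are known to be timed. Sequences were taken from RefSeq (GRCm38.p6), and 32 of the 38 genes matched, with 34 promoters of 300 bases, 250 before and 50 after the start; Aurkb, Ccna2, Ccne2, Gins2, Mcm4 and Tpx2 had no entry. The CHR element (TTTGAA on either strand) occurred in 12 of 17 mitosis promoters and in 1 of 17 replication promoters, against 17.9% of all 32851 promoters. The CCAAT box (CCAAT on either strand) occurred in 15 of 17 mitosis and 12 of 17 replication promoters, against 37.4% of all. An E2F site, searched as TTTCCCGC, TTTGGCGC, TTTCGCGC or TTTGCCGC on either strand, occurred in 1 of 17 mitosis and 7 of 17 replication promoters, against 2.26% of all. These matches describe letters only. The 200 bases before the start are shown for 4 mitosis genes with both a CHR and CCAAT boxes and for 2 replication genes with an E2F site, with every match in capitals; matches on the other strand read as the reverse complement, and overlapping matches run together. Ube2c lies at chr2:164769729-164769928 on the plus strand, Top2a at chr11:99024190-99024389 on the minus strand, Cdc20 at chr4:118437344-118437543 on the minus strand, Cdk1 at chr10:69352913-69353112 on the minus strand, Mcm6 at chr1:128359706-128359905 on the minus strand and Cdc6 at chr11:98907951-98908150 on the plus strand.
Ube2c: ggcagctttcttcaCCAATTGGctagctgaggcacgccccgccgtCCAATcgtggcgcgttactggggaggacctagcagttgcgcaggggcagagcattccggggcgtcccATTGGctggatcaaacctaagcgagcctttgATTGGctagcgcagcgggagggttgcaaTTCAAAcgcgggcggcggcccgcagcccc
Top2a: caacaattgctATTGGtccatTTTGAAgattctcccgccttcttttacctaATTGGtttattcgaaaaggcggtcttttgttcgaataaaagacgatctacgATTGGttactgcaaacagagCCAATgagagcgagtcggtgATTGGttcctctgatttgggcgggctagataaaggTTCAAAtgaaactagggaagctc
Cdc20: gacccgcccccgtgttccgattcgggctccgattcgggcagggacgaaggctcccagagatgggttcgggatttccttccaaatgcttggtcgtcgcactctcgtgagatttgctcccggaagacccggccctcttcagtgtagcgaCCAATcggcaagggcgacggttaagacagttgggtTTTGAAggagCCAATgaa
Cdk1: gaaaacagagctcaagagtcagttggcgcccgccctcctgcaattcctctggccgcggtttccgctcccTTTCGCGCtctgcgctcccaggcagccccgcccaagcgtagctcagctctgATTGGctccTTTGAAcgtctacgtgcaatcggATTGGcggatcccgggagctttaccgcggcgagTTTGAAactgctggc
Mcm6: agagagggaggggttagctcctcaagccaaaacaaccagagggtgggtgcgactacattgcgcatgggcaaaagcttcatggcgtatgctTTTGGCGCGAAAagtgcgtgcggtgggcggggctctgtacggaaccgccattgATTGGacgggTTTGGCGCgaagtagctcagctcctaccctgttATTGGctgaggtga
Cdc6: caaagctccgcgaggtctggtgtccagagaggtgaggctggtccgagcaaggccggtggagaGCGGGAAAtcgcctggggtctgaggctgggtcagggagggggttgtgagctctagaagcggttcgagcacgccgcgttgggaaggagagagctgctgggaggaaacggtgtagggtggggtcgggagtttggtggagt
In Ube2c, Top2a, Cdc20 and Cdk1 the CHR nearest the start began 29, 23, 18 and 15 bases before it. Cdk1 was the mitosis gene that also held an E2F site, 131 bases before its start, and Mcm6 held 3 E2F matches that began 110, 106 and 47 bases before its start, the first pair overlapping.

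Both sets were highest in the carcinoma-like cells. The 18 replication genes summed to 1500.3 CPM there in the Cherry_Positive library (1950 UMIs, interval 1434 to 1568) and the 20 mitosis genes to 2107 (2738 UMIs, 2028 to 2187). In fibroblasts the replication sum was 229.9 CPM among Cherry_Positive and 203 among Cherry_Negative cells, in endothelial cells 345 and 319.9, and in lung epithelial cells 181 and 172. The mitosis sum was lower than the replication sum in each of these host classes: 99.3 and 30.7 in fibroblasts, 39.2 and 165 in endothelial cells, and 51.6 and 68.7 in lung epithelial cells. The mitosis intervals of the libraries did not overlap in fibroblasts and endothelial cells, and overlapped in lung epithelial cells (29.5 to 83.8, from 16 UMIs, and 60.9 to 77.2).

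**Figure D1:**
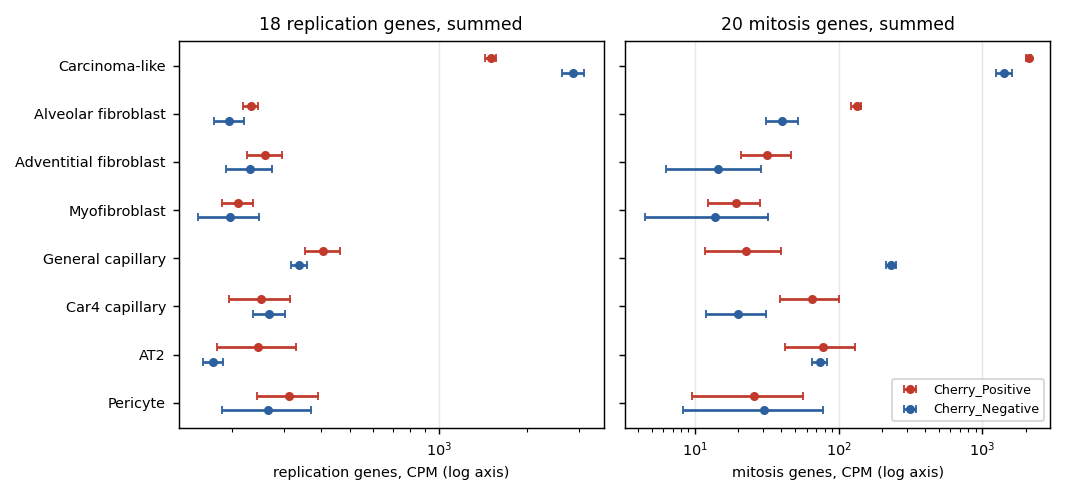
Summed level of the 18 replication genes (left) and the 20 mitosis genes (right) in CPM on a log axis, for 8 classes (carcinoma-like cells, alveolar and adventitial fibroblasts, myofibroblasts, general and Car4 capillary cells, AT2 cells and pericytes) in the Cherry_Positive (red) and Cherry_Negative (blue) library, with 95% Poisson intervals as bars. The carcinoma-like cells stand to the right of all other classes in both panels, at 1500.3 and 2107 CPM in the Cherry_Positive library, and the mitosis intervals of the libraries do not overlap for carcinoma-like cells (4 in the Cherry_Negative library), alveolar fibroblasts, general capillary cells and Car4 capillary cells.

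Within the carcinoma-like class of the Cherry_Positive library, Dut had the highest level of the replication set. Dut, which removes dUTP before it can enter DNA, reached 362 CPM (470 UMIs) and was seen in 80.5% of the 123 cells. Among Car4 capillary cells, taken here as the background class, Dut was seen in 8.64% (Cherry_Positive) and 7.54% (Cherry_Negative) of cells, at median depths of 3150 and 2660 UMIs per cell against 5462 in the carcinoma-like cells. Rrm2, the regulated subunit of ribonucleotide reductase, stood at 121 CPM and Tyms, thymidylate synthase, at 96.9, while Rrm1, the other reductase subunit, stood at 40.8. Rrm2 was at 0 in the Car4 capillary cells of both libraries.

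Slbp, the histone mRNA binding protein, and Pcna, the sliding clamp, stood at 135 and 119 CPM. The 6 Mcm helicase subunits ranged from 46.2 for Mcm4 to 105 for Mcm6. The helicase partner Gins2 stood at 60.8, the licensing factor Cdt1 at 41.5 and Uhrf1, which carries DNA methylation through replication, had 52 UMIs. The loading factor Cdc6 and the E cyclins were the low end of the set. Cdc6 stood at 10.8 CPM (14 UMIs), and Ccne1 and Ccne2 at 5.39 each (7 UMIs each).

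Among mitosis genes of the same cells, Cenpa, the histone variant that marks centromeres, had the highest level, 345 CPM, and was seen in 62.6% of cells. Birc5 (survivin, of the chromosomal passenger complex) stood at 290.1, Ube2c, the ubiquitin-conjugating enzyme of the anaphase-promoting complex, at 270.1, Ccnb2, a B cyclin, at 249, and Cdc20, the activator of that complex, at 209. The remaining cyclins and their kinase were lower, with Ccnb1 at 102, Ccna2 at 88.5 and Cdk1 at 80.8.

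The large kinetochore protein Cenpf stood at 109 CPM in 22.8% of cells, and a single cell held 20.4% of its UMIs. Top2a, the topoisomerase that untangles chromosomes, stood at 68.5, with 34.8% of its 89 UMIs in a single cell. Spindle genes were lower, from 45.4 for Tpx2 through 44.6 for Aurka, 37.7 for Plk1, 34.6 for Nusap1 and 33.9 for Hmmr to the motor Kif11 with 13 UMIs. The kinesin Cenpe stood at 33.9, the passenger kinase Aurkb at 20.8 and the checkpoint kinase Bub1 at 16.2. Mki67, the proliferation marker Ki-67, was among the lowest, with 21 UMIs (16.2 CPM) in 12.2% of cells, so that in these 3' libraries it was seen in fewer cells than Cenpa (62.6%), Birc5 (64.2%) or Ube2c (55.3%).

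**Figure D2:**
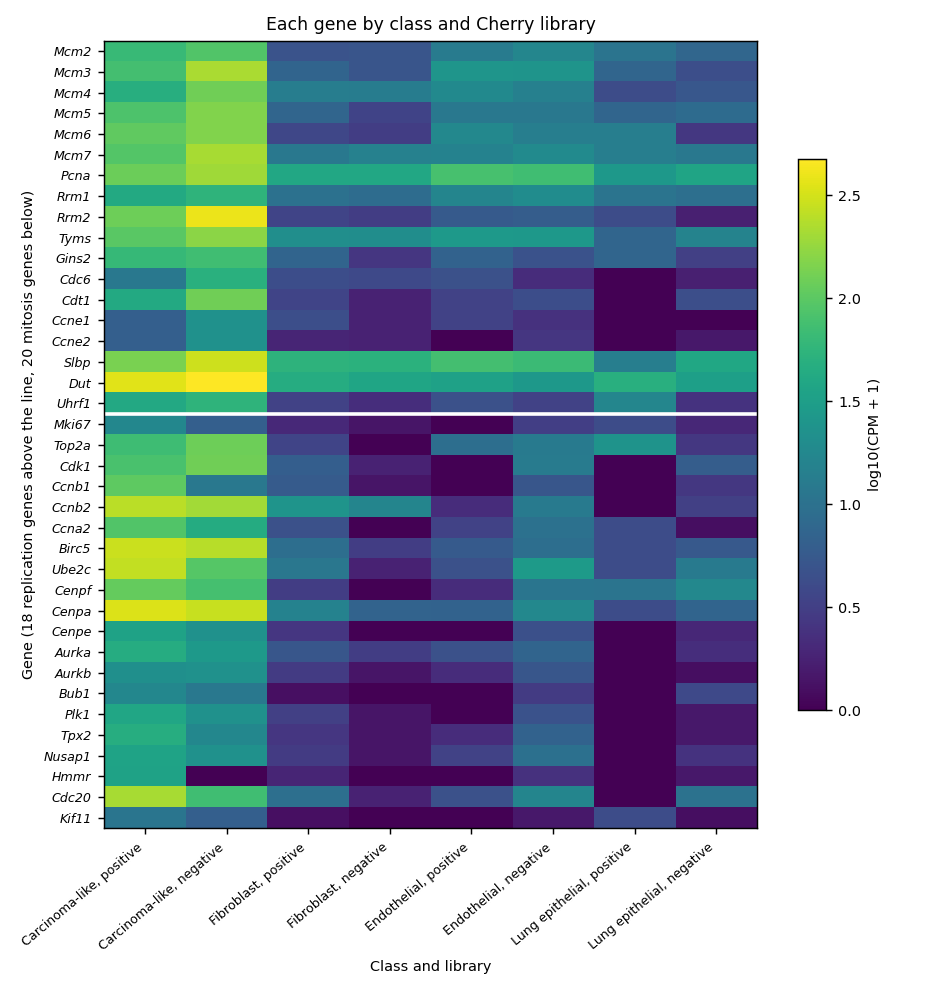
Level of each of the 38 genes as log10 of CPM plus 1 (colour), in the carcinoma-like, fibroblast, endothelial and lung epithelial classes of the Cherry_Positive and Cherry_Negative libraries. The 2 carcinoma-like columns are brightest for nearly every gene, and Pcna, Tyms, Slbp and Dut stay visible in all host classes. Most mitosis genes are near 0 in fibroblasts of the Cherry_Negative library, endothelial cells of the Cherry_Positive library and lung epithelial cells of both.

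The 4 carcinoma-like cells of the Cherry_Negative library held a median of 49928 UMIs each. Their replication sum was 2859 CPM (525 UMIs) and their mitosis sum 1421 (261 UMIs), so the order of the sets was the reverse of that in the 123 Cherry_Positive cells. By cell, replication UMIs numbered 202, 59, 159 and 105 and mitosis UMIs 81, 84, 75 and 21. Rrm2 stood at 398 CPM, Mcm3 at 218 and Mcm7 at 212, each above the Cherry_Positive value, whereas Ccnb1 stood at 10.9, Cdc20 at 70.8 and Ube2c at 92.6, each below it. Hmmr was at 0. All 4 cells held UMIs of Krt8 and Krt18, 22 to 177 each in sum. Of the 11 carcinoma markers, Krt8, Krt18, Krt7 and Krt14 were above their level in the other Cherry_Negative cells. Krt19 (10.9 against 63.7 CPM), Epcam (21.8 against 63.6), Cdh1 (5.45 against 51.4) and Cldn3 (5.45 against 245) were below it, and Krt17, Cldn4 and Cldn7 were at 0. The carcinoma-like name of these 4 cells thus rests on the joint cluster and on part of the list, and their values are given side by side only.

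Against fibroblasts of the same Cherry_Positive library, the replication sum of the carcinoma-like cells was 6.53-fold higher (6.10 to 6.98) and the mitosis sum 21.2-fold higher (19.5 to 23.1). All 38 genes had at least 10 UMIs over both classes, and 37 were at least 2-fold higher in carcinoma-like cells, a fold that 12.9% of the 12041 genes compared reached. Their median log2 ratio was 3.03 for replication and 4.59 for mitosis genes, against -0.48 over all genes compared. The replication genes spread widely: Rrm2 was 47.8-fold (28.9 to 84.2) and Mcm6 39.4-fold (24.0 to 68.5) higher, while Pcna was 3.02-fold (2.46 to 3.69) and Slbp 2.55-fold (2.12 to 3.07) higher. Ccne1, at 7 against 23 UMIs, was the gene short of 2-fold, with a ratio of 1.58 (0.571 to 3.796).

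The mitosis genes lay between 10.7-fold for Aurka (6.73 to 17.5) and 54.4-fold for Bub1, which rests on 2 fibroblast UMIs (13.3 to 479). Cenpf was 52.6-fold (30.3 to 98.6), Birc5 34.9-fold (26.3 to 47.1) and Ube2c 26.0-fold (20.05 to 34.1) higher. Ccnb2 was 10.8-fold higher (8.86 to 13.1) and had the highest fibroblast level of the set, 23.2 CPM. Against endothelial cells of the library, 34 of the 36 genes with at least 10 UMIs were at least 2-fold higher, against 16.8% of 9502 genes. The exceptions were Pcna (1.52-fold) and Slbp (1.84-fold). Of the 20 mitosis genes, 8 were at 0 in these endothelial cells. Those 8 passed the minimum only through the carcinoma-like cells, so the count is a description.

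**Figure D3:**
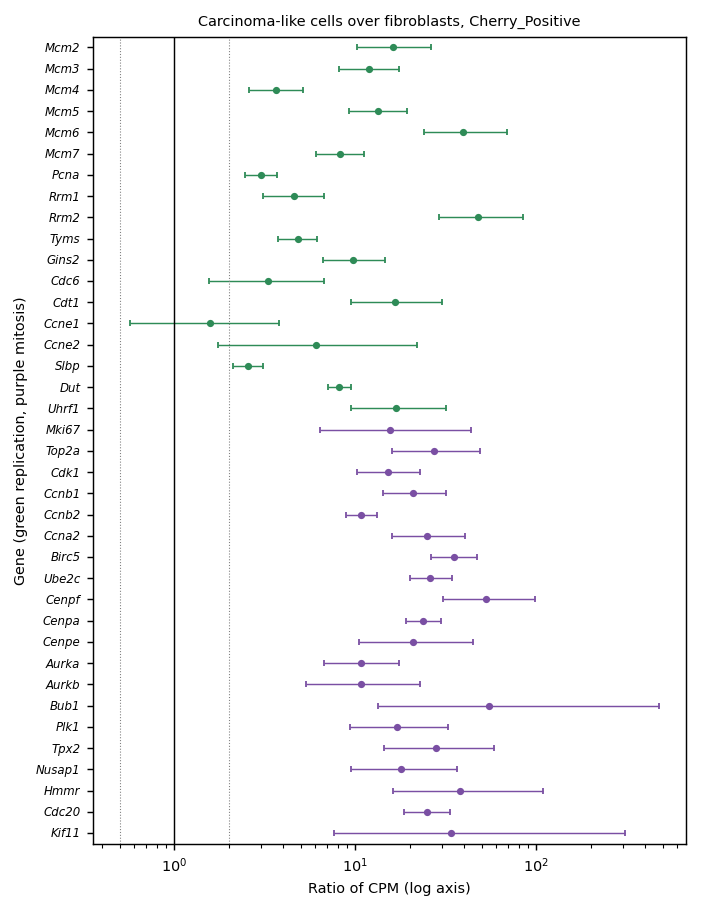
Ratio of CPM, carcinoma-like cells over fibroblasts of the Cherry_Positive library, for each of the 38 genes on a log axis, with 95% intervals as bars, a solid line at 1 and dotted lines at 2-fold. The mitosis genes (purple) lie between 10.7 and 54.4, and the replication genes (green) spread from 1.58 for Ccne1 to 47.8 for Rrm2.

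Wider lists of pathway genes were set against the same background. Of 57 other replication genes compared, 51 were at least 2-fold higher in carcinoma-like cells than in fibroblasts and 0 lower, and of 76 other mitosis genes 70 were higher and 0 lower, against 12.9% of all genes higher. The most abundant of the replication list were between 3.77-fold (Tipin, of the fork protection complex) and 4.65-fold (Ccdc34) higher, with Rpa3 at 3.85, Rfc2 at 3.84 and Nasp at 3.796. Of the mitosis list, the histone variant gene H2afz was 4.62-fold higher, and Hmgb1, Tuba1b, Tubb5 and Tubb4b, whose products also serve cells at rest, were 1.83, 1.96, 2.14 and 1.72-fold higher.

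Of 11 G1 cyclins, kinases and Myc genes compared, 3 were higher and 2 lower. Ccnd1 (cyclin D1) was 26.2-fold higher (22.3 to 30.9) and Cdk4 2.49-fold higher, Cdk6 was 1.997-fold higher and just short of the fold, and the other D cyclins were lower, at 0.290 (Ccnd2) and 0.457 (Ccnd3) of the fibroblast level. Among 15 CDK inhibitor and quiescence genes, 10 were at least 2-fold lower and 0 higher, against 33.3% of all genes lower. Cdkn1a (p21) stood at 36.9 CPM in carcinoma-like cells and 655 in fibroblasts, and the antiproliferative gene Btg2 at 55.4 and 1757. Btg1 was at 0.471 and Ccng1 at 0.242 of the fibroblast level, and Cdkn2c, at 0.947 (0.759 to 1.17), did not separate the classes.

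Cells were then counted at equal depth, each thinned at random to 2000 UMIs, with shallower cells left out. Of 122 Cherry_Positive carcinoma-like cells, 67 (54.9%, 45.7 to 63.9) kept at least 2 mitosis UMIs in this draw, and the share expected over all draws was 62.1%; before thinning it was 78.0% of 123. At least 2 replication UMIs were kept by 68 cells (55.7%). By both, 43 cells held replication and mitosis UMIs, 24 mitosis alone, 25 replication alone, and 30 neither. Among Car4 capillary cells the share with 2 mitosis UMIs was 2 of 78 in the Cherry_Positive library (2.56%) and 0 of 221 in the Cherry_Negative library, which allows up to 1.36%, and it was 0 of 48 in AT1 cells of the Cherry_Negative library, which allows up to 6.25%.

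The 4 Cherry_Negative carcinoma-like cells all passed both counts. In fibroblasts, 25 of 1224 Cherry_Positive cells (2.04%, 1.33 to 3.00) and 0 of 598 Cherry_Negative cells (up to 0.502%) kept 2 mitosis UMIs, and the shares expected over all draws were 1.77% and 0.331%. Before thinning these shares were 4.18% of 1243 and 0.858% of 699, and 19 and 101 cells were too shallow to be thinned. In endothelial cells the counts were 3 of 213 (1.41%, 0.291 to 4.06) and 12 of 960 (1.25%, 0.648 to 2.17), with 11 and 484 cells too shallow, and in lung epithelial cells 0 of 39 (up to 7.69%) and 3 of 514. The interval of the Cherry_Positive fibroblast share overlapped that of Car4 capillary cells (0.312 to 8.96). Few Car4 capillary cells were counted, which makes that interval wide. The comparison therefore cannot tell whether the fibroblast share stood above the background class of its library. The replication set gave larger shares, 6.78% and 7.69% in fibroblasts and 9.39% and 11.7% in endothelial cells, and Car4 capillary cells were no exception at 11.5% and 11.3%. A share of that size with replication UMIs was therefore also found in the class taken as background.

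**Figure D4:**
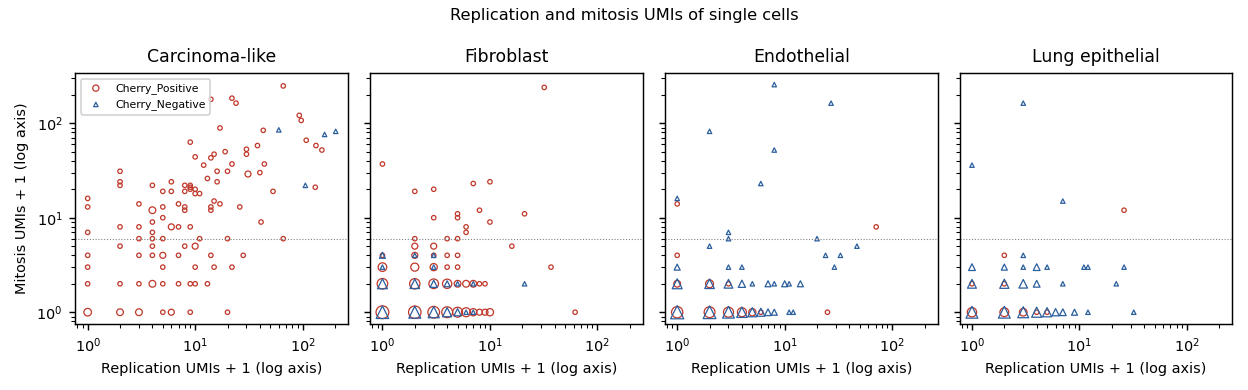
Replication UMIs (horizontal) and mitosis UMIs (vertical) of single cells, each plus 1 on log axes and not thinned, in 4 classes of the Cherry_Positive (red circles) and Cherry_Negative (blue triangles) library; larger symbols stand for more cells, and the dotted line marks 5 mitosis UMIs. Carcinoma-like cells spread over both axes, whereas in fibroblasts, endothelial and lung epithelial cells most symbols lie at the bottom and a few cells rise to as many as 238, 255 and 162 mitosis UMIs.

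In fibroblasts the replication set was led by Slbp at 53.0 (Cherry_Positive) and 50.8 (Cherry_Negative) CPM, Dut at 44.4 and 36.5, Pcna at 39.5 and 38.9 and Tyms at 20.2 and 19.7. Their transcripts were thinly spread. Slbp was seen in 22.4% of Cherry_Positive fibroblasts, and its highest cell held 1.96% of its UMIs. The libraries did not separate for these 4 genes, whose ratios lay between 1.02 (Pcna, 0.800 to 1.30) and 1.22 (Dut, 0.958 to 1.56). The replication sum was 1.13-fold higher in the Cherry_Positive library (1.02 to 1.26).

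The mitosis sum of fibroblasts was 3.23-fold higher in the Cherry_Positive library (2.54 to 4.16), from 669 UMIs in 1243 cells against 75 in 699. Of the 33 genes that reached 10 UMIs in all, 17 were at least 2-fold higher, and 0 lower, in the Cherry_Positive library, against 5.53% of 12180 genes higher and 9.11% lower. They were 13 of 16 mitosis and 4 of 17 replication genes. Ccne2, Mki67, Bub1, Hmmr and Kif11 fell under the minimum, and a gene at 0 in the Cherry_Negative library could reach it only through the Cherry_Positive library, so the count is a description. With a minimum of 30 UMIs the count was 9 of 19, against 4.43% of 10518 genes.

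Of the genes that direct mitotic exit, Ube2c had 70 and 2 UMIs, 10.4 and 0.819 CPM, a ratio of 12.7 (3.38 to 107), and Cdc20 had 57 and 2 UMIs, 8.46 and 0.819 CPM, a ratio of 10.3 (2.73 to 87.4). For the cyclins and their kinase, Ccnb1 had 33 and 1 UMIs (ratio 12.0, 2.003 to 487), Cdk1 had 36 and 2 (6.53, 1.68 to 55.9), and Ccna2 had 24 and 0. With 0 replaced by the floor of 3 UMIs per class, Ccna2 was 2.90-fold higher. That value leaves out the counting error of its 24 UMIs. Ccnb2 was the exception among cyclins, at 156 and 38 UMIs and a ratio of 1.49 (1.04 to 2.18). Birc5 (56 and 5 UMIs) was 4.06-fold and Cenpa (98 and 15) 2.37-fold higher, and Top2a (17 and 0) was 2.05-fold higher against the same floor. Aurka, at 28 and 5 UMIs, had a ratio of 2.03 whose interval reached below 1 (0.774 to 6.73), as did those of Aurkb, Plk1, Tpx2 and Nusap1, with 1 Cherry_Negative UMI each.

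Among the replication genes, those past 2-fold were Mcm5 (43 and 6 UMIs, 2.60-fold, 1.10 to 7.47), Gins2 (42 and 4, 3.81-fold, 1.38 to 14.6), Cdt1 (17 and 2, 3.08-fold, 0.731 to 27.5) and Ccne1 (23 and 2, 4.17-fold, 1.03 to 36.5). The other Mcm genes lay between 0.778 (Mcm7) and 1.52 (Mcm3), each with an interval that held 1. Exons of Gins2 overlap those of Gse1 on the opposite strand over 2758 bases, and Ube2c overlaps Tnnc2 over 592 bases. Shorter overlaps with opposite-strand genes exist for Ccna2, Ccne2, Cdc20, Mcm7, Nusap1, Plk1 and Slbp. The sources do not state how strand was used in counting, so reads of such pairs may be mixed and the values of these 9 genes are uncertain.

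**Figure D5:**
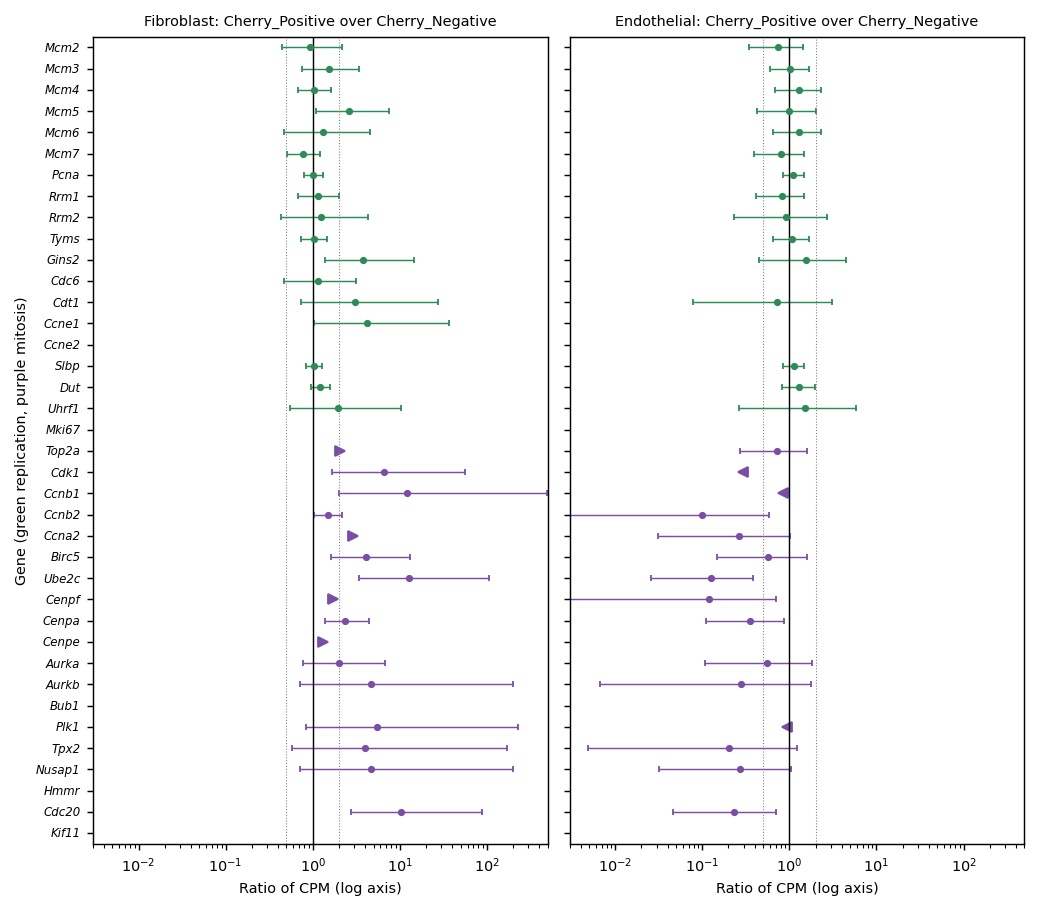
Ratio of CPM, Cherry_Positive over Cherry_Negative, in fibroblasts (left) and endothelial cells (right), for genes that reached 10 UMIs in all, on a log axis at whose edges long bars are cut, with 95% intervals as bars, a solid line at 1 and dotted lines at 2-fold; triangles mark bounds for genes at 0 in a library, and Cenpe in endothelial cells, for which no fold was formed, has no symbol. Replication genes (green) lie within 2-fold of 1 in endothelial cells and, except Mcm5, Gins2, Cdt1 and Ccne1, in fibroblasts, and most mitosis genes (purple) lie to the right of 1 in fibroblasts and to the left in endothelial cells.

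The mitosis UMIs of fibroblasts sat in few cells. In the Cherry_Positive library 17 of 1243 fibroblasts (1.37%, 0.799 to 2.18) had 5 or more mitosis UMIs, a limit chosen after the values were seen, against 0 of 699 in the Cherry_Negative library (up to 0.429%), at median depths of 4575 and 3091 UMIs per cell. These 17 cells, with a median depth of 8810, held 65.9% of the mitosis UMIs of the class and 7.30% of its replication UMIs. The first of them, with 30844 UMIs, had 238 mitosis UMIs from all 20 genes, 35.6% of the class, and without it the mitosis level was 64.3 CPM and the ratio between libraries 2.11. It held 50 of the 70 Ube2c UMIs (71.4%), and for Plk1 12 of 15 UMIs (80.0%) came from 1 cell. Ccnb2 and Cenpa were more widely spread, with Ccnb2 seen in 7.32% and 4.72% of fibroblasts of the libraries.

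Of the 17 cells, 15 had no UMI of Krt8 or Krt18, of which carcinoma-like cells held a median of 8, and the others had 3 and 12. Each held UMIs of the fibroblast markers, 6 to 680 with a median of 47. By cluster, 7 lay in cluster 7, 7 in cluster 8 and 1 in cluster 2, all alveolar fibroblasts, and 2 in the adventitial cluster 9. Clusters 6, 7 and 8 held most Cherry_Positive alveolar fibroblasts (211, 265 and 280 of 873), whereas cluster 2 held most of the Cherry_Negative ones (325 of 452). Within cluster 2 the mitosis level was 93.3 and 39.6 CPM, within cluster 6 it was 49.3 and 43.8, within cluster 7 it was 112 and 25.5, and within cluster 8, with 7 Cherry_Negative cells, 214 and 68.6.

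Across alveolar fibroblasts the mitosis sum ratio was 3.29 (2.53 to 4.34), and 16 of 31 genes were at least 2-fold higher, against 7.71% of 11452 genes. Of the 14 mitosis genes among them, 6 were at 0 in the Cherry_Negative library. Those 6 passed the minimum only through the Cherry_Positive library, so this count too is a description. In adventitial fibroblasts the mitosis level was 31.9 and 14.6 CPM (ratio 2.19, 0.969 to 5.58), and in myofibroblasts 19.2 and 13.8 (1.39, 0.521 to 4.67), so neither separated the libraries beyond counting error. The fibroblast ratio depended on which cells the class held. When cell cycle genes were allowed to shape the clusters, 6 Cherry_Positive fibroblasts with 319 mitosis UMIs joined the carcinoma-like cluster and the ratio was 1.71, and when the libraries were clustered separately it was 1.34.

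The wider lists in fibroblasts gave 14 of 52 other mitosis genes at least 2-fold higher and 2 lower in the Cherry_Positive library, and 4 of 45 other replication genes higher and 1 lower, against 5.53% of all genes higher and 9.11% lower. The replication and G1 counts are too small to be told from that share. H2afz was 1.68-fold (1.53 to 1.84) and Tubb5 1.42-fold (1.32 to 1.53) higher, and Hmgb1, Tuba1b and Tubb4b had ratios of 1.03, 1.08 and 0.948. Of the most abundant other replication genes, Tipin stood at 0.728, Ccdc34 at 0.808, Nasp at 0.939, Rpa3 at 0.995 and Rfc2 at 1.13. Cdk6 was the single G1 gene of 11 past 2-fold (2.26, 1.63 to 3.21), and the D cyclins and Cdk4 lay between 0.835 (Ccnd3) and 1.12 (Cdk4). Of 15 CDK inhibitor and quiescence genes 3 were lower and 0 higher. Cdkn2c (p18) had 82.9 and 257 CPM, a ratio of 0.322 (0.287 to 0.362), while Cdkn1a, Btg2, Ccng1 and Btg1 had ratios of 0.818, 0.763, 0.937 and 1.42.

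In endothelial cells the mitosis sum was lower in the Cherry_Positive library. It was 39.2 CPM (33 UMIs) among Cherry_Positive and 165 (701 UMIs) among Cherry_Negative cells, a ratio of 0.237 (0.162 to 0.336). The replication sum was 345 and 319.9, a ratio of 1.08 (0.948 to 1.23), which was 0.831 without the endothelial cell of each library that held most UMIs of the 38 genes. Of 31 genes that reached 10 UMIs, 10 were at least 2-fold lower in the Cherry_Positive library, against 6.75% of 10906 genes, and 0 were higher, against 3.48%. All 10 were mitosis genes, of 16 compared, and 0 of the 15 replication genes compared reached 2-fold either way. By the Cherry_Positive counts alone 0 mitosis genes reached 10 UMIs. The 16 therefore passed the minimum through the Cherry_Negative library, and the count is a description.

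Ube2c had 3 and 119 UMIs, 3.56 and 28.1 CPM, a ratio of 0.127 (0.0258 to 0.380), and Cdc20 had 3 and 65, a ratio of 0.232 (0.0467 to 0.709). Ccnb2 had 1 and 50 UMIs (0.101, 0.00250 to 0.587), Cenpf 1 and 42 (0.120, 0.00296 to 0.705), Cenpa 5 and 71 (0.354, 0.112 to 0.866), and Cdk1 0 and 51. With 0 replaced by the floor of 3 UMIs, Cdk1 stood at 0.296 of the Cherry_Negative level. Top2a, at 7 and 49 UMIs, stood at 0.719 (0.275 to 1.59) and did not separate the libraries. Pcna (78.3 and 70.5 CPM), Slbp (73.6 and 65.6) and Tyms (27.3 and 25.7) were as level between libraries as in fibroblasts, with ratios of 1.11, 1.12 and 1.06 and intervals that held 1.

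Here too a handful of cells carried the set. In the Cherry_Negative library 9 of 1444 endothelial cells (0.623%, 0.285 to 1.18) had 5 or more mitosis UMIs and held 85.9% of the mitosis UMIs but 5.09% of the replication UMIs. The first 4 held 255, 162, 81 and 51. Without the first, the mitosis level was 105 CPM. All 9 had 0 UMIs of Krt8 and Krt18 and 22 to 86 UMIs of endothelial markers. In the Cherry_Positive library 2 of 224 cells (0.893%, 0.108 to 3.19) reached 5, with 13 and 7 mitosis UMIs, and the intervals of these shares overlap. The shares of such cells thus did not separate the libraries. The mitosis CPM was lower in the Cherry_Positive library, but its interval does not cover such gathering of UMIs in few cells. The libraries are therefore not said to differ in it.

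Of the 9 cells, 7 were general capillary cells of cluster 5, which held 291 Cherry_Negative and 35 Cherry_Positive cells. In that cluster the Cherry_Negative mitosis level was 589 CPM, 93.8% of it in these 7 cells, with Ube2c at 107, Cenpa at 51.9, Cdc20 at 47.1, Ccnb2 at 46.1 and Cdk1 at 44.2. Its Cherry_Positive cells had a mitosis level of 41.1 from a single cell, and a replication level of 716 CPM, 57.4% of it in that cell, which held 70 replication and 7 mitosis UMIs. In all general capillary cells the mitosis level was 22.7 and 231 (ratio 0.0985, 0.0506 to 0.173), with 11 of 31 genes at least 2-fold lower, against 8.94% of 10262 genes, and 2 higher, against 4.09%. The 11 were mitosis genes, which passed the minimum mainly through the Cherry_Negative library, so this count too is a description. The replication sum of general capillary cells was 406 and 336 (ratio 1.21, 1.04 to 1.40). The Cherry_Positive sum includes the cell with 70 replication UMIs, and the interval does not cover such gathering of UMIs in a single cell. The libraries are therefore not said to differ in it. In Car4 capillary cells the mitosis level was 64.9 and 19.9, from 19 UMIs in each library, 13 of the Cherry_Positive ones in a single cell.

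The direction of the endothelial mitosis ratio reversed when cell cycle genes were allowed in the clustering: 5 Cherry_Negative endothelial cells and 1 lung epithelial cell then joined the carcinoma-like cluster, with 733 mitosis UMIs in all and 0 UMIs of Krt8 and Krt18 in 5 of the 6, and the ratio became 1.26. Without the endothelial cell of each library that held most UMIs of the 38 genes it was 0.296, and with the libraries clustered separately 0.204. Of 53 other mitosis genes compared in endothelial cells, 15 were at least 2-fold lower and 1 higher, and of 46 other replication genes 2 were lower and 2 higher, against 6.75% of all genes lower and 3.48% higher. The replication counts lie near those shares. Tubb5 and Tubb4b had ratios of 1.02 and 1.01, Tuba1b 0.943, H2afz 0.826 and Hmgb1 0.798. Cdkn1a stood at 2778 and 2912 CPM in endothelial cells and Ccnd1 at 636 and 529.

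Lung epithelial cells had low levels of both sets. In AT2 cells, the surfactant-producing cells, the mitosis sum was 77.7 CPM in 22 Cherry_Positive cells (14 UMIs) and 74.3 in 449 Cherry_Negative cells (277 UMIs). A single Cherry_Negative AT2 cell held 162 mitosis UMIs, 58.5% of the class, along with 3413 UMIs of AT2 markers, and accounted for all 21 UMIs of Cdk1 and for 95.7% of those of Ube2c. Another held 35 mitosis UMIs, all from Cenpf. Of AT1 cells, the flat cells of gas exchange, 57 in the Cherry_Negative library held 3 mitosis UMIs, from Ccnb2 and Ube2c. Pericytes had mitosis levels of 25.9 and 30.3 CPM with at most 1 UMI in any cell.

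Cells with 3 or more mitosis UMIs were set against cells with 0 within the Cherry_Positive library, to see which other genes go with the mitosis set. In fibroblasts there were 28 such cells and 1049 with 0, at median depths of 6551.5 and 4359 UMIs. Their replication level was 559 and 212 CPM, a ratio of 2.63 (2.20 to 3.13). Other mitosis genes were at least 2-fold higher in 41 of 47 compared, and other replication genes in 17 of 43, against 7.23% of 11393 genes. In carcinoma-like cells 91 cells had 3 or more mitosis UMIs and 16 had 0, at median depths of 7130 and 3223.5, with a replication level of 1550.1 and 769, a ratio of 2.01 (1.52 to 2.72). There 19 of 66 other mitosis genes and 8 of 49 other replication genes were higher, against 14.0% of 7036 genes. The replication count lies near that share.

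Outside the cycle lists, the fibroblasts with mitosis UMIs held more Lockd, a non-coding RNA transcribed next to Cdkn1b (23 against 7 UMIs, 68.4-fold, 28.4 to 189, in 12 of the 28 cells), and more 2700094K13Rik (10.3-fold, 8.01 to 13.2, in 21 of 28 cells). Fst (follistatin), Spp1 (osteopontin), Cxcl2 and Ptprn were 6.21, 7.39, 6.06 and 24.3-fold higher and seen in 13, 9, 5 and 9 cells. Serpina1b and Thy1 had 97.9% and 81.0% of their UMIs in a single cell. Lower were Mustn1 (0.052 of the level in cells with 0), Aspn (0.041) and Enpp2 (0.088), which are on the myofibroblast marker list, with Hp at 0.110, Ifit1 at 0.092, Gm26870 at 0.070, and Actg2 and Wif1 at 0 UMIs against 589 and 549. Of the 17 fibroblasts with 5 or more mitosis UMIs, 0 were myofibroblasts.

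In carcinoma-like cells the genes higher with mitosis UMIs were Tm4sf1 (17.95-fold, 4.95 to 149), Tuba1c (261 against 0 UMIs), Ier3 (4.88-fold), Cxcl1 (4.64), Spp1 (4.48), Sub1 (4.33), Hspa5 (4.17) and Calm2 (4.03), and among those lower were Scd2 (0.158), S100a14 (0.248), Gm10269 (0.298), Malat1 (0.410), Actb (0.469), Tpt1 (0.582) and Eef1a1 (0.599). The cells with 0 mitosis UMIs held Krt8 and Krt18 at 1969.8 CPM, the 29 cells with 1 to 4 at 1673 and the 78 cells with 5 or more at 2281, so the level did not follow the mitosis count. The share that depth had in these differences was not tested.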

How the data were processed

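The 2 deposited matrices hold whole-number UMI counts for each gene and barcode, per the labels from Chromium 3' kits and a HiSeq4000. Cell Ranger 2.1.1, mm10, Seurat 4.0.2 and R 4.0.3 appear in the submitters' processing notes; their settings are not stated. The 38 genes, the marker and pathway lists and the comparisons were chosen with earlier results of these data known.

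Barcodes were kept with at least 500 genes and at most 10% mitochondrial UMIs (56 Cherry_Positive and 50 Cherry_Negative barcodes failed). Scrublet (expected rate 2%) called 4 and 7 doublets (0.226% and 0.249%), which were removed; with so few calls, doublets may remain. Both libraries were clustered together (scanpy 1.11.5, leidenalg 0.10.2, 2000 variable genes, 30 components, 15 neighbours, resolution 1, seed 0) without 181 cell cycle genes, giving 21 clusters. A cluster needed at least 3 markers detected in 10% of its cells, at 10% of their highest level, and leading genes that did not contradict its name. Clusters 16 and 20 stayed unnamed, and a leukocyte cluster of 33 and 29 cells remained despite the CD45- sort.

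UMIs were summed per class and library (Python 3.11.15, with numpy 2.4.6, pandas 2.3.3 and scipy 1.17.1). Sums carry exact Poisson limits, ratios carry limits converted from the exact binomial for the split of UMIs, and cell shares carry Clopper-Pearson limits, all at 95%. Where a share was 0 cells, the upper limit given is instead 3 divided by the number of cells. That is an approximate 1-sided 95% limit and is tighter than the Clopper-Pearson one. Genes with 10 or more UMIs in all were compared, a difference counted from 2-fold, and a side at 0 was replaced by 3 counts. All 38 genes are reported, of each wider list the 5 with most UMIs are named, and for cells with mitosis UMIs the 8 genes each way whose interval bound nearest 1 lay farthest from it, among genes with 30 or more UMIs outside the cycle lists and without mitochondrial or ribosomal protein genes; 1 gene so chosen is not reported here. Shares of cells came from cells thinned to 2000 UMIs. The computation was tested on simulated sums of independent UMIs, so this check did not cover UMIs gathered in single cells. Gene overlaps came from GENCODE M21 (GRCm38) and promoters from RefSeq. Figures were drawn with matplotlib 3.10.9. Alternatives changed the filter, doublet removal, resolution, clustering genes, joint clustering, UMI minimum, totals, free RNA, thinning, motif window and single cells.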

Additional observations from a re-analysis of the deposited data

Results flagged for a closer look

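The mitosis sum of the Cherry_Positive over the Cherry_Negative library was 3.23 in fibroblasts and 0.237 in endothelial cells, so the summed level was higher in one class and lower in the other. Of 16 mitosis genes compared in each class, 13 were at least 2-fold higher in fibroblasts, against 5.53% of all genes. In endothelial cells 10 were at least 2-fold lower, against 6.75%. Among fibroblasts 4 of the 16 were at 0 in the Cherry_Negative library, and in endothelial cells 0 reached 10 UMIs in the Cherry_Positive one. These counts are therefore descriptions. The opposite directions depend on the clustering: with cell cycle genes allowed in it the ratios were 1.71 and 1.26, both above 1. With the libraries clustered separately they were 1.34 and 0.204. With 1 library per group this difference between the classes was not tested.

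Barcodes left out by the cell filter are outside the comparisons above. The 56 left out of the Cherry_Positive library held mitosis genes at 224 CPM (49 UMIs, 166 to 297), and 3 of them had 5 or more mitosis UMIs, all 3 with UMIs of Krt8 or Krt18. The 50 left out of the Cherry_Negative library held 0 mitosis UMIs, which allows up to 26.0 CPM. When no filter was applied, 8 of the Cherry_Positive barcodes joined the carcinoma-like cluster.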

How the results depend on the processing

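Of 296 alternative values for 30 results, 233 stayed within the counting interval of the reported value (counts of genes within 1.5 times), 62 moved and 1 reversed. The causes were not tested unless named. No paired analysis was possible because each group is 1 library, and for the same reason no replicate could be left out. Depth limits the host classes, where most mitosis genes had under 30 UMIs. The share expected over all draws, the class names carried over from the standard filter, and leaving out cells with 5 or more mitosis UMIs were alternatives chosen after seeing the data.

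With cell cycle genes in the clustering, 6 Cherry_Positive fibroblasts, 5 Cherry_Negative endothelial cells and 1 lung epithelial cell joined the carcinoma-like cluster. The endothelial mitosis ratio reversed to 1.26, the fibroblast one fell to 1.71 with 6 genes at least 2-fold higher, 3 genes were higher in endothelial cells, the carcinoma-like over fibroblast mitosis ratio was 42.9, and mitosis levels were 2247 (carcinoma-like, Cherry_Positive), 52.4 (fibroblast, Cherry_Positive) and 31.0 (endothelial, Cherry_Negative). With separate clustering, the Cherry_Negative library had no carcinoma-like class, the fibroblast ratios were 1.34 (mitosis, 3 genes higher) and 1.01 (replication), Cherry_Positive fibroblast levels were 46.2 and 203, their share of cells was 1.25%, and carcinoma-like cells were 45.6-fold (mitosis) and 7.39-fold (replication) above fibroblasts.

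Without the cell of each class and library with most UMIs of the 38 genes, mitosis levels were 1992 (carcinoma-like) and 64.3 (fibroblast) in the Cherry_Positive and 105 (endothelial) in the Cherry_Negative library, the Cherry_Positive endothelial replication level was 265 and its ratio 0.831, the fibroblast mitosis ratio was 2.11, and the carcinoma-like over fibroblast one 31.0. Without all cells with 5 or more mitosis UMIs, 6 genes were higher in fibroblasts and the endothelial replication ratio was 0.867. With a minimum of 30 UMIs, 9 of 19 were higher in fibroblasts, against 4.43% of 10518 genes.

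At resolution 0.5, a myofibroblast cluster stayed unnamed, the Cherry_Positive fibroblast mitosis level was 118 and the carcinoma-like ratio 17.9. The stricter cell filter merged carcinoma-like with club cells, so that class had no value, and put the Cherry_Negative endothelial mitosis level at 185; with names carried over from the standard filter it was 182, the carcinoma-like level 2211, and 1 gene was higher in endothelial cells. After subtracting 5% free RNA, Cherry_Positive mitosis levels were 2193 (carcinoma-like), 85.8 (fibroblast) and 26.7 (endothelial), the endothelial mitosis ratio was 0.160, and carcinoma-like cells were 7.05-fold (replication) and 25.6-fold (mitosis) above fibroblasts. With totals free of mitochondrial and ribosomal protein genes, which are smaller, Cherry_Positive replication levels were 2224 (carcinoma-like), 282 (fibroblast) and 416 (endothelial), Cherry_Negative ones 245 and 381 (fibroblast, endothelial), mitosis levels 3122, 122 (Cherry_Positive carcinoma-like, fibroblast) and 197 (Cherry_Negative endothelial), and carcinoma-like over fibroblast ratios 7.89 and 25.6.

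The share of cells with mitosis UMIs in Cherry_Positive carcinoma-like cells was 77.9% at a threshold of 1 UMI, 43.4% at 3, 75.2% when thinned to 3000 UMIs, 78.0% without thinning and 64.8% in another draw. In Cherry_Positive fibroblasts it was 8.42% at 1 UMI, 0.899% at 3, 1.29% at 1000 UMIs and 4.18% without thinning. In Cherry_Negative fibroblasts it was 4.35% at 1 UMI, 0.809% at 3000 UMIs and 0.858% without thinning, and in Cherry_Negative endothelial cells 4.58% at 1 UMI and 0.554% at 1000 UMIs. In the shorter promoter window 0 of 17 mitosis promoters held an E2F site.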

Other observations

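The leukocyte cluster, which the CD45- sort was meant to remove, held 33 Cherry_Positive and 29 Cherry_Negative cells. Its mitosis sum was 413 and 252 CPM. A single Cherry_Positive cell with 9811 UMIs held 63 of the 73 mitosis UMIs, from 19 of the 20 genes, and 50 UMIs of leukocyte markers. In the Cherry_Negative library 2 leukocyte cells held 14 and 13 mitosis UMIs, and the first also held 39 replication UMIs.

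In the 449 Cherry_Negative AT2 cells Cenpf was seen in 3.56%, Cdc20 in 4.23% and Bub1 in 2.45% of cells, and 44.7% of the Cdc20 UMIs and 16.7% of the Bub1 UMIs lay in a single cell.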
